A study of Mus musculus with 6 samples.

Results

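Aminoacyl-tRNA synthetases, the enzymes that load each tRNA with its amino acid, were followed in cultured mouse pericytes kept with or without platelet-derived growth factor BB (PDGF-BB). The members were chosen by name: 36 genes, 20 of cytosolic enzymes and 16 of mitochondrial enzymes, whose symbols end in 2. An array row with a single annotated gene symbol was found for 35 of the 36, 19 cytosolic and 16 mitochondrial, among 20239 named genes in all; Dars, the cytosolic aspartyl enzyme, is not analysed here. Pericytes are the contractile cells that wrap capillaries, and PDGF-BB acts on them through the receptor tyrosine kinase PDGFR-β. The cells came from the C57BL/6 background and were given PDGF-BB at 100 ng/ml for 5 days (3 arrays) or served as untreated controls (3 arrays), with total RNA measured on 1-colour arrays. The labels do not say whether arrays of a group came from separate isolations, so the spread behind each p-value is that of these 6 arrays and may be technical only.

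Most synthetases of the cytosol are encoded by other genes than those of the mitochondrion, although both sets are nuclear genes. The cytosolic enzymes feed the ribosomes that make almost all cell protein, and the mitochondrial enzymes feed the organelle's own ribosomes, which make a few subunits of the respiratory chain. Gars and Kars each supply the enzyme of both compartments. Many cytosolic synthetase genes are known targets of ATF4, the transcription factor of the amino acid response, which is made when the initiation factor eIF2 is phosphorylated.

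Levels are the authors' log2 values from RMA, a method that equalises the value distribution of the arrays, so a change in total RNA would not be seen; the median log2 change over all genes was -0.02. Array medians ran from 8.43 to 8.46, and arrays correlated across genes at r = 0.994 to 0.996 within a group and 0.973 to 0.986 between groups. Of 14 pericyte markers 7 lay above a background level of 7.81, among them Pdgfrb (12.85 ± 0.09 with PDGF-BB and 12.98 ± 0.11 in control; SD, n = 3 each), Tbx18 and Cd248, while Rgs5, Kcnj8, Abcc9, Vtn, Des, Higd1b and Ndufa4l2 lay under it. That level is the 90th percentile of the mean values of 14 lymphocyte, mast cell and erythroid markers. All 8 fibroblast markers lay above it, against 1 of 10 endothelial, 2 of 10 macrophage and 2 of 7 epithelial markers. Pdgfra, the other PDGF receptor gene and 1 of these 8, measured 12.82 ± 0.08 with PDGF-BB and 12.90 ± 0.10 in control (SD, n = 3 each). Which receptor the changes below went through was not tested. The fibroblast list's mean log2 value was 12.52 to 12.92 on the PDGF-BB arrays and 12.09 to 12.21 on the control arrays, and its part in the results below was not tested. Of its 8 genes 3 rose (Col3a1, Lum and Dpt), Lum by 2.91 on the log2 scale, and without Lum the mean log2 change of the other 7 was 0.26. Among pericyte markers Anpep rose (log2 change 0.87) and Cd248 fell (-0.33). Among macrophage markers Cd14 (0.80) and Mpeg1 (1.40) rose and Cd68 (-0.42) and Lyz2 (-0.49) fell, Mpeg1 and Lyz2 under the background level. Over all genes 10.1% rose and 11.4% fell. In bulk RNA, fewer cells of a type and less RNA per cell cannot be told apart.

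Cytosolic synthetase genes rose with PDGF-BB and mitochondrial ones for the most part did not pass the test. Of 19 cytosolic genes 15 rose and 0 fell, with a median log2 change of 0.57, where "rose" and "fell" mean an adjusted p under 0.05 in limma's moderated test over all genes. In the same test 10.1% of all genes rose and 11.4% fell, and 21.5% changed in either direction. Of 16 mitochondrial genes 2 rose (12.5%) and 1 fell, with a median log2 change of 0.01. The folds of the 15 cytosolic genes that rose ran from 1.17 for Rars to 2.01 for Aars, and 8 of them reached 1.5-fold. All 19 cytosolic changes were above 0, whereas 9 mitochondrial changes were above 0 and 7 below. The 3 PDGF-BB arrays lay wholly above the 3 control arrays in 18 of 19 cytosolic genes, and 16.9% of all genes were separated in that direction. In 6 of 16 mitochondrial genes the groups did not overlap, in either direction, against 37.6% of all genes.

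**Figure D1:**
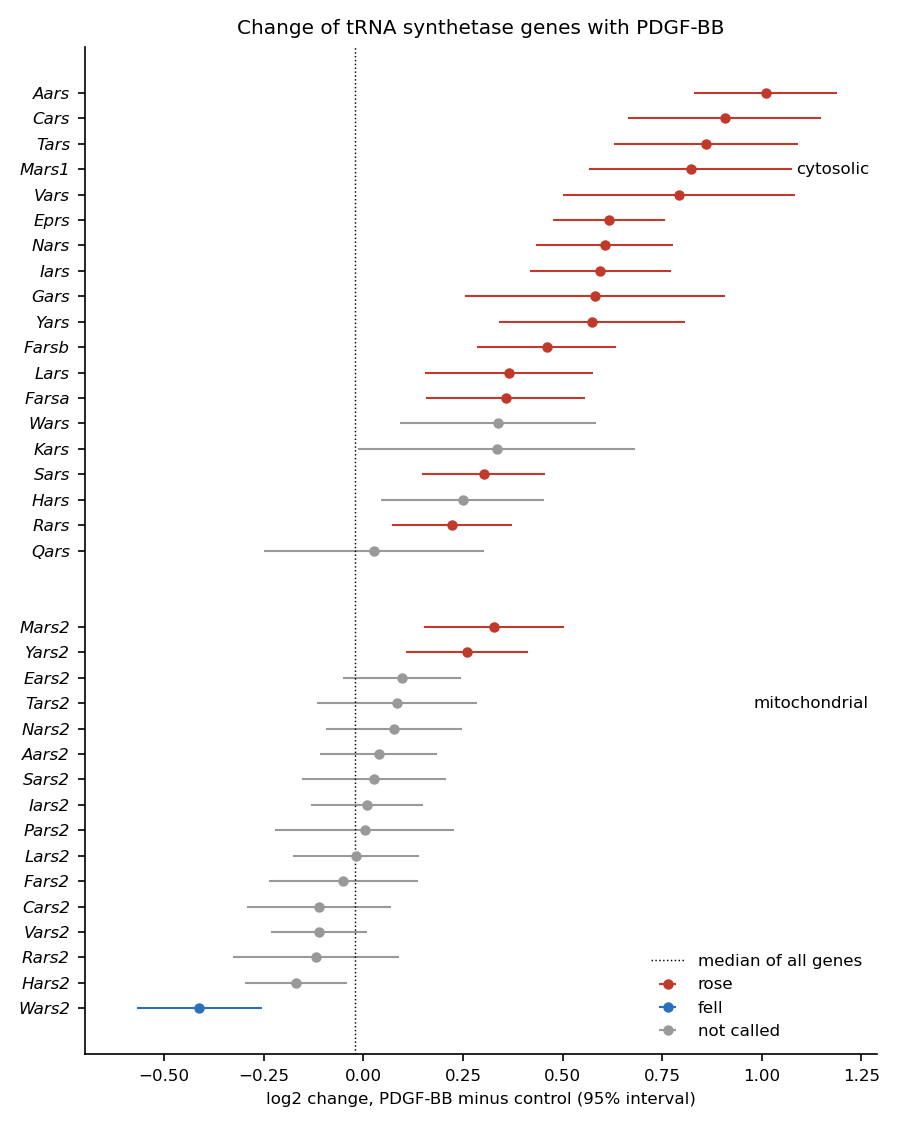
Log2 change (PDGF-BB minus control, horizontal axis) of the 19 cytosolic and 16 mitochondrial tRNA synthetase genes. Points are estimates and bars 95% intervals of limma's moderated fit (n = 3 arrays each), coloured by call, and the dotted line is the median of all genes at -0.02. The cytosolic points run from 0.03 for Qars to 1.01 for Aars, and the mitochondrial points from -0.41 for Wars2 to 0.33 for Mars2.

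RefSeq promoters (GRCm38.p6, 250 bases before to 50 after the start) were matched for 12 of the 19 cytosolic and 14 of the 16 mitochondrial genes. They were searched on both strands for TGATGNAA, the composite element that ATF4 binds together with C/EBP factors. It was found in the promoters of 5 of 12 cytosolic genes (Aars, Tars, Iars, Yars and Gars) and of 0 of 14 mitochondrial genes, against 3.97% of all 32851 mouse promoters in the table. With a share that low, 0 of 14 lies near it and does not set the mitochondrial genes apart. The shares count promoters, and the 14 mitochondrial genes have 15. The stricter TGATGCAA, a subset of the same matches, was found in 4 cytosolic genes and in 0.895% of all promoters. Stretches of 90 bases are shown for the 5 genes with the element, which are among those that rose, with the element in capitals on whichever strand it lies. Those of Wars2, the mitochondrial gene that fell, and Mars2, the mitochondrial gene with the largest rise, are shown beside them. Like most promoters, neither holds the element anywhere. The stretches lie at chr8:111033690-111033779 (plus strand) for Aars, chr15:11399639-11399728 (minus strand) for Tars, chr13:49682060-49682149 (plus strand) for Iars, chr4:129189833-129189922 (plus strand) for Yars, chr6:55037931-55038020 (plus strand) for Gars, chr3:99141020-99141109 (plus strand) for Wars2 and chr1:55237107-55237196 (plus strand) for Mars2, and end within the first 20 transcribed bases or before the start.
Aars: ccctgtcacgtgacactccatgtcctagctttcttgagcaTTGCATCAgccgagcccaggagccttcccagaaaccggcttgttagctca
Tars: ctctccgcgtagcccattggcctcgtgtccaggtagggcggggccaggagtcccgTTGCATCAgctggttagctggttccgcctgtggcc
Iars: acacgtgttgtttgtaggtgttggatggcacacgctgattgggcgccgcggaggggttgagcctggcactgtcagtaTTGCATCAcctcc
Yars: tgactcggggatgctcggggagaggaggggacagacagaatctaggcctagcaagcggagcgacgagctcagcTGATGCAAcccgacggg
Gars: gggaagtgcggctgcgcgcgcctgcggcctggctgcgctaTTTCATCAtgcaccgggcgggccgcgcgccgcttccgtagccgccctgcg
Wars2: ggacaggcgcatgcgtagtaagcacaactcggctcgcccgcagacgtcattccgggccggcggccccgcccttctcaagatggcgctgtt
Mars2: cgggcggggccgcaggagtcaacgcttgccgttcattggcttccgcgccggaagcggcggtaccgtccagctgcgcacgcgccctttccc
Counted from the start, the element shown lies at bases -112 to -105 in Aars, which holds a further TGATGNAA match at bases 10 to 17. It lies at -15 to -8 in Tars and at -30 to -23 in Gars, both before the start, and at 8 to 15 in Iars and 4 to 11 in Yars, both after it. The 5 cytosolic genes with the element had log2 changes of 0.57 to 1.01 (median 0.59), and all 5 rose. The 7 with a promoter but no match had changes of 0.03 to 0.82 (median 0.36), and 5 of them rose. Both counts stand beside the 10.1% of all genes that rose. Cytosolic genes without a matched promoter, among them Cars (0.91), Vars (0.79) and Nars (0.61), are in neither set. Neither the difference between these medians nor that between the counts was tested. Mars1 (0.82) and Eprs (0.62) rose without a match in this window. The E-box CACGTG was found in 4 cytosolic genes (Aars, Farsb, Iars, Tars) and 1 mitochondrial gene (Ears2), against 7.15% of all promoters. The core of interferon-stimulated response elements, a repeated GAAA with a spacer, was found in Qars alone (3.44% of all promoters). TTCNNNGAA, of STAT elements, was found in Aars, Kars and Nars2 (8.30%), and the palindromic NRF1 element in none (0.971%). A match is a run of letters, not a shown binding site.

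Aars, which charges tRNA with alanine (Entrez gene 234734), had the largest change of the 35 genes. It measured 11.73, 11.86 and 11.67 on PDGF-BB arrays 1 to 3, against 10.78, 10.80 and 10.64 on control arrays 1 to 3. It rose 2.01-fold (log2 change 1.01, SE 0.08, adjusted p = 7.3e-04, limma). Cars, the cysteinyl enzyme, gave 10.67, 10.72 and 10.64 with PDGF-BB and 9.97, 9.78 and 9.56 in control, a rise of 1.88-fold (log2 change 0.91, SE 0.10, adjusted p = 0.0021, limma). The 3 Cars values with PDGF-BB lay close together, and the control values were more spread. Tars, the threonyl enzyme, gave 10.34, 10.53 and 10.63 with PDGF-BB and 9.75, 9.67 and 9.50 in control (1.82-fold higher, adjusted p = 0.0022, limma). Tarsl2, a close relative of Tars in the cytosol, measured 7.87 ± 0.10 with PDGF-BB and 8.17 ± 0.17 in control (SD, n = 3 each), a log2 change of -0.30 (adjusted p = 0.082, limma; 0.031 when blocked on replicate number). Whether probes of such relatives share sequence was not checked.

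Mars1 charges both the elongator and the initiator tRNA with methionine. Its values were 11.26, 11.26 and 11.41 with PDGF-BB, against 10.66, 10.27 and 10.54 in control, 1.77-fold higher (log2 change 0.82, SE 0.11, adjusted p = 0.0031, limma). Vars, the valyl enzyme, had 11.69, 11.78 and 11.66 with PDGF-BB and 11.20, 10.84 and 10.72 in control (1.73-fold higher, adjusted p = 0.0054, limma). For both genes the lowest PDGF-BB array lay above the highest control array by more than the spread among the PDGF-BB arrays. Eprs, a fused enzyme for glutamate and proline, had close replicates in both groups: 11.56, 11.65 and 11.65 with PDGF-BB, and 11.04, 10.94 and 11.02 in control (1.53-fold higher, adjusted p = 0.0015, limma). Nars, the asparaginyl enzyme, measured 12.46, 12.47 and 12.50 with PDGF-BB and 12.01, 11.80 and 11.80 in control (1.52-fold higher, adjusted p = 0.0025, limma). Iars, the isoleucyl enzyme, measured 12.06, 11.98 and 11.98 with PDGF-BB and 11.54, 11.39 and 11.30 in control (1.51-fold higher, adjusted p = 0.0027, limma). The groups did not overlap in any of these 5 genes, nor in any of the 18 called synthetases, against 37.6% of all genes without overlap.

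Gars, the glycyl enzyme of cytosol and mitochondria, had 11.93, 11.72 and 11.95 with PDGF-BB and 11.59, 11.13 and 11.13 in control (log2 change 0.58, SE 0.14, adjusted p = 0.025, limma). Control array 1 stood well above the other controls, and dropping control 2, control 3, PDGF-BB 1 or PDGF-BB 3 ended the call (adjusted p = 0.078 to 0.084). Kars, the lysyl enzyme of both compartments, did not pass (log2 change 0.33, 95% interval -0.01 to 0.68, adjusted p = 0.17, limma). Its arrays read 10.60, 10.81 and 10.57 with PDGF-BB and 10.54, 10.44 and 10.00 in control, so control array 3 was low while control array 1 nearly reached the PDGF-BB arrays. Yars, the tyrosyl enzyme, gave 11.02, 11.01 and 11.09 with PDGF-BB and 10.68, 10.32 and 10.39 in control (1.49-fold higher, adjusted p = 0.0076, limma). Farsa and Farsb, the α and β subunits of the phenylalanyl enzyme, rose by 0.36 and 0.46 on the log2 scale (adjusted p = 0.025 and 0.0061, limma). Dropping control 1, control 3, PDGF-BB 1 or PDGF-BB 2 ended the Farsa call (adjusted p = 0.057 to 0.077), and the Farsb call was kept under all 12 alternatives.

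Smaller changes were seen in Lars, the leucyl enzyme that also senses leucine for mTORC1 (1.29-fold, adjusted p = 0.028), Sars, the seryl enzyme (1.23-fold, adjusted p = 0.018), and Rars, the arginyl enzyme (1.17-fold, adjusted p = 0.049, limma). Lars no longer passed when control 2, control 3 or any 1 PDGF-BB array was dropped (adjusted p = 0.062 to 0.088), nor did Sars when control 2, PDGF-BB 1 or PDGF-BB 3 was dropped (0.053 to 0.059). Blocking on replicate number ended the Rars call (adjusted p = 0.062), as did dropping any 1 array (0.052 to 0.15). Wars, the tryptophanyl enzyme, whose human counterpart is induced by interferon-γ, measured 10.98, 10.81 and 11.01 with PDGF-BB and 10.79, 10.44 and 10.55 in control. It did not pass (log2 change 0.34, 95% interval 0.09 to 0.58, adjusted p = 0.061, limma), although it passed when blocked on replicate number (adjusted p = 0.026), after the dimmer genes, those below the 50th percentile, were filtered out (0.043) and without control array 1 (0.018). Hars, the histidyl enzyme, differed by 0.25 on the log2 scale (95% interval 0.04 to 0.45, adjusted p = 0.089, limma), with no overlap between the groups. Qars, the glutaminyl enzyme, was the only cytosolic gene whose groups overlapped: 11.78, 11.83 and 11.63 with PDGF-BB and 11.88, 11.81 and 11.47 in control. Its log2 change was 0.03 (95% interval -0.25 to 0.30, adjusted p = 0.92, limma).

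**Figure D2:**
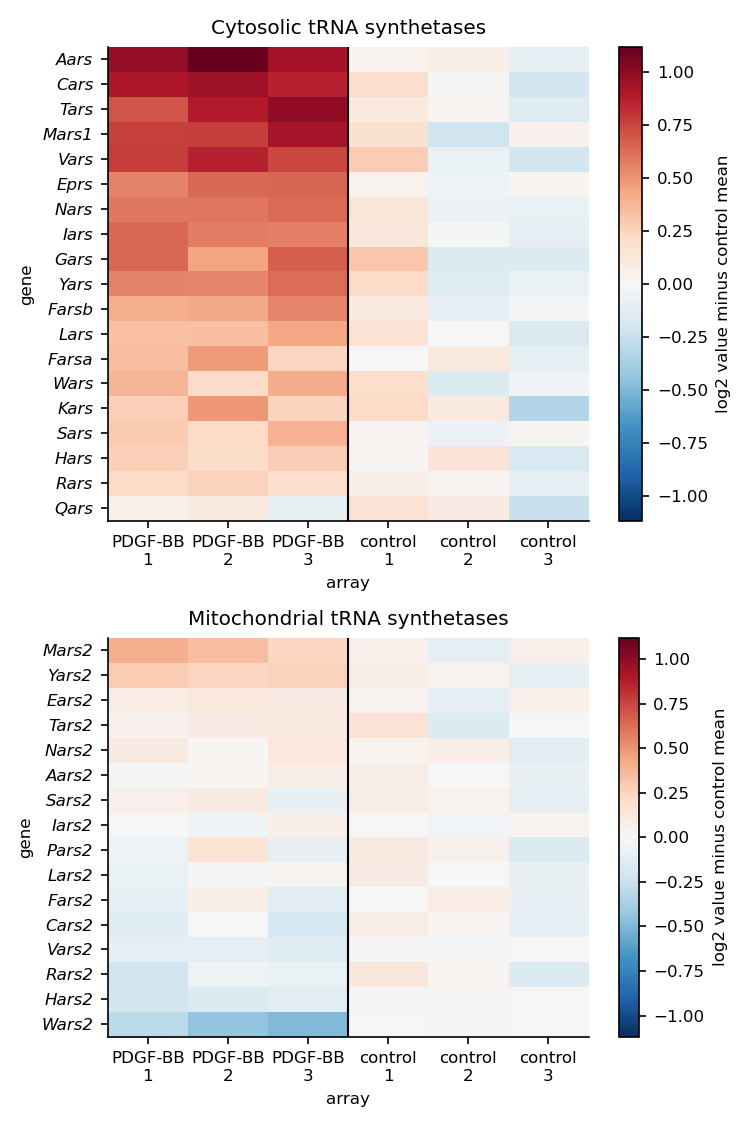
Each cell is 1 array's log2 value minus the gene's mean over the 3 control arrays, with the PDGF-BB arrays left of the control arrays and genes ordered by their change. The cytosolic panel is red on the 3 PDGF-BB arrays down to Rars, and control array 1 is the highest control in 16 of its 19 rows; in the mitochondrial panel Wars2 is blue and most rows are near white.

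Measured from each gene's control mean, the cytosolic median was 0.55, 0.49 and 0.57 on PDGF-BB arrays 1 to 3, against 0.14, -0.02 and -0.10 on control arrays 1 to 3. The mitochondrial median was -0.02, 0.02 and -0.02 on the PDGF-BB arrays and 0.06, 0.01 and -0.08 on the control arrays. Control array 1 was the highest control in 16 of 19 cytosolic and 9 of 16 mitochondrial genes. Between arrays of the same number, the median cytosolic difference was 0.34, 0.59 and 0.63 and the median mitochondrial difference -0.11, -0.01 and 0.05.

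Synthetases fall into classes I and II by the fold of their catalytic domain, and 7 of 9 genes of each class rose, with median log2 changes of 0.57 and 0.46. Eprs, the fused enzyme, which rose, was placed in neither class. Over all genes 10.1% rose. Several cytosolic synthetases sit in a multisynthetase complex held together by scaffold proteins. Of 7 measured enzymes of that complex 5 rose (Eprs, Iars, Lars, Mars1 and Rars; median 0.36), and of 12 outside it 10 rose (median 0.58). The difference between these medians was not tested, and 3 rather than 5 complex enzymes rose when control array 2 or 3 or any 1 PDGF-BB array was left out. Among class II genes 4 rather than 7 rose without PDGF-BB array 1, and Lars and Rars of class I lost their calls there as well. The scaffolds did not all follow: Eef1e1 and Aimp2 rose 1.61-fold and 1.37-fold (adjusted p = 0.0017 and 0.019, limma), while Aimp1 had a log2 change of -0.00 (adjusted p = 0.99). Aimp2 no longer passed when control 2, control 3 or PDGF-BB 2 was dropped (adjusted p = 0.056 to 0.061).

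Among mitochondrial genes, Wars2, the tryptophanyl enzyme (Entrez gene 70560), fell. It measured 9.16, 9.02 and 8.97 with PDGF-BB, against 9.45, 9.47 and 9.45 in control, 1.33-fold lower (log2 change -0.41, SE 0.07, adjusted p = 0.0061, limma). The control values were nearly equal, and the call was kept under all 12 alternatives. Mars2, which charges mitochondrial tRNA with methionine, rose 1.25-fold, with 9.30, 9.25 and 9.14 on the PDGF-BB arrays and 8.96, 8.79 and 8.97 on the control arrays (adjusted p = 0.021, limma). Yars2, the tyrosyl enzyme, rose by 0.26 on the log2 scale, with 9.86, 9.81 and 9.83 with PDGF-BB and 9.64, 9.61 and 9.47 in control (adjusted p = 0.030, limma). Neither rise was firm. Mars2 lost its call when control 2, PDGF-BB 1 or PDGF-BB 2 was dropped (adjusted p = 0.060 to 0.075). Yars2 lost its own under the trended and robust variance model (0.052) and when control 2, control 3 or any 1 PDGF-BB array was dropped (0.060 to 0.092).

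The other 13 mitochondrial genes did not pass, with log2 changes of -0.17 (Hars2) to 0.10 (Ears2) and 95% intervals that together span -0.33 to 0.29. Hars2, the histidyl enzyme, came nearest: 9.73, 9.78 and 9.81 with PDGF-BB and 9.92, 9.96 and 9.95 in control (adjusted p = 0.069, limma; 0.034 after repeated quantile normalization). Its 3 PDGF-BB arrays lay below the 3 control arrays. Iars2, the isoleucyl enzyme, measured 10.83, 10.77 and 10.89 with PDGF-BB and 10.81, 10.79 and 10.86 in control, differing by 0.01 on the log2 scale (95% interval -0.13 to 0.15). Aars2, the alanyl enzyme, measured 9.17, 9.18 and 9.23 with PDGF-BB and 9.23, 9.16 and 9.08 in control, differing by 0.04 (95% interval -0.11 to 0.18). Vars2, the valyl enzyme, was lower on all 3 PDGF-BB arrays, by 0.11 on average (95% interval -0.23 to 0.01), and Ears2, the glutamyl enzyme, higher on all 3 by 0.10 (-0.05 to 0.24). Cars2, Fars2, Lars2, Nars2, Pars2, Rars2, Sars2 and Tars2, named for cysteine, phenylalanine, leucine, asparagine, proline, arginine, serine and threonine, overlapped between the groups, with changes of -0.12 to 0.08. Control means ran from 8.23 to 10.82 for the mitochondrial genes and from 9.64 to 12.26 for the cytosolic ones, so the mitochondrial probes were dimmer, and the part of signal in their smaller changes was not tested. The dimmest were Nars2 (mean 8.30 with PDGF-BB and 8.23 in control) and Pars2 (8.32 in both). Both lay above the background level of 7.81 but near 8.25, the mean of the highest of its 14 markers.

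For 13 amino acids a cytosolic and a mitochondrial gene could be set against each other. The difference of their log2 values was taken per array and fitted with all genes in limma, a test added after the values were seen. The log2 change of the cytosolic gene lay above that of the mitochondrial gene in all 13 pairs. The difference passed in 12 (adjusted p = 6.9e-04 to 0.048, limma). Of single genes 21.5% changed in either direction, and the share of other gene pairs that would pass was not computed. The pairs reuse the values behind the member counts above, so they are no separate test of the contrast. The difference was largest for cysteine, where Cars and Cars2 changed by 0.91 and -0.11 (difference 1.02, 95% interval 0.84 to 1.19). Alanine (0.97), valine (0.91), threonine (0.78) and tryptophan (0.75) followed. For tryptophan the cytosolic gene alone did not pass, and the fall of Wars2 made up more of the difference than the change of Wars. Serine was the pair that did not pass, with a difference of 0.28 (95% interval 0.03 to 0.52, adjusted p = 0.12, limma), although it passed when blocked on replicate number (adjusted p = 0.029). Tyrosine (0.31) and methionine (0.49) were the pairs in which both genes rose, and the tyrosine call did not survive blocking on replicate number (adjusted p = 0.051) or dropping control 2, control 3 or any 1 PDGF-BB array (0.095 to 0.13). The methionine call was lost when control 2 was dropped (0.0503). Hars and Hars2, neighbours in the mouse genome, differed by 0.42 (95% interval 0.21 to 0.63), a call lost when PDGF-BB 1 (adjusted p = 0.064) or PDGF-BB 3 (0.0502) was dropped. In the asparagine pair, which passed, Nars2 lay near the highest background marker, and the part of its low signal in the difference was not tested.

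**Figure D3:**
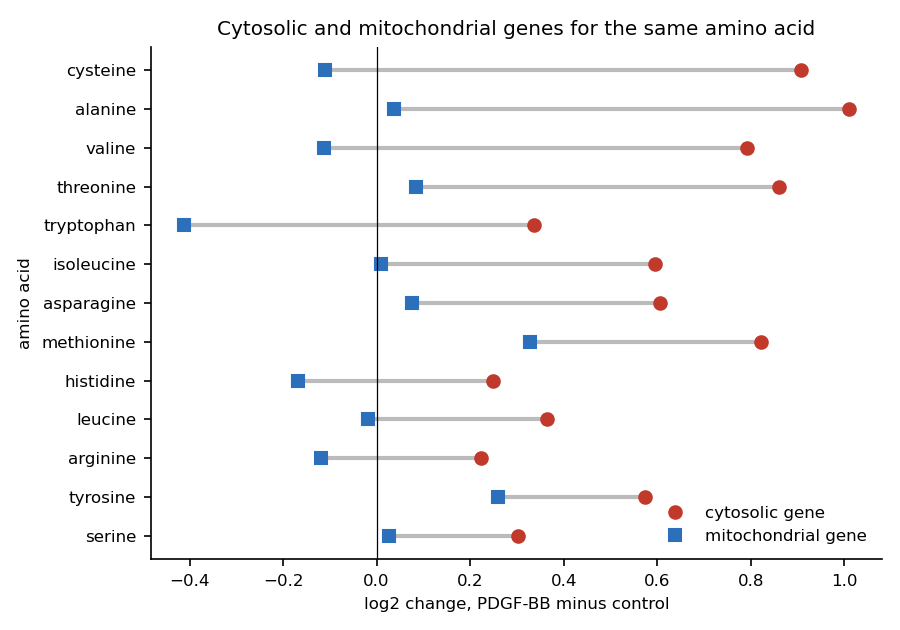
Log2 change (PDGF-BB minus control) of the cytosolic gene (circles) and the mitochondrial gene (squares) for each of 13 amino acids, ordered by the difference between them. The circle lies right of the square in every row, by 1.02 for cysteine and by 0.28 for serine.

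Genes with neighbouring roles did not share one pattern. Aarsd1 and Dtd1 both guard against mischarged tRNA, and Aarsd1 rose 1.35-fold (adjusted p = 0.010) while Dtd1 was 1.34-fold lower (adjusted p = 0.0060, limma). In all, 3 of 10 synthetase partner and editing genes rose and 2 fell, against 10.1% and 11.4% of all genes. Pstk, the kinase of the selenocysteine route, was the other that fell (1.31-fold lower, adjusted p = 0.027), and its call was lost when any array but control 3 was left out (0.051 to 0.088). Mitochondria make glutaminyl-tRNA through an amidotransferase, of which the subunit gene Qrsl1 rose 1.27-fold (adjusted p = 0.019) and Gatb was 1.22-fold lower (adjusted p = 0.042), while Gatc had a log2 change of -0.18 (adjusted p = 0.059, limma; 0.040 after repeated quantile normalization). Qrsl1 lost its call without control array 3 (0.059). Gatb lost its own after repeated quantile normalization (0.071), with each array centred on its median (0.053), with the trended and robust model (0.051) and without any 1 array other than PDGF-BB array 3 (0.054 to 0.13).

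Over all genes 10.1% rose and 11.4% fell, and the counts that follow were not tested against these shares. Of 10 mitochondrial translation factors 2 rose (Tsfm, 1.34-fold, and Gfm1, log2 change 0.38) and 2 fell (Mrrf, 1.43-fold lower, and Guf1, 1.41-fold lower), with a median log2 change of -0.10. Both rises were lost when control 2, control 3, PDGF-BB 1 or PDGF-BB 3 was dropped (adjusted p = 0.055 to 0.091). Of 75 mitochondrial ribosomal protein genes 16 rose, among them Mrpl12 (1.41-fold), and 2 fell, Mrpl24 and Mrpl34, with a median of 0.15. That count of 16 was 5 when control 3 or PDGF-BB 2 was dropped and 8 to 10 when control 2, PDGF-BB 1 or PDGF-BB 3 was. Of 8 cytosolic translation factors 2 rose, the initiation factor gene Eif2s2 and the termination factor gene Etf1 (log2 changes 0.36 and 0.31), with a median of 0.14, and 0 to 2 rose with 1 array left out. Only 1 of 30 measured cytosolic ribosomal protein genes rose (Rps25, whose control mean of 7.36 lay under the background level and whose call was lost when PDGF-BB 1 was dropped) and 1 fell (Rpl22, 1.35-fold lower), with a median of -0.03. Of 14 genes of tRNA modification and export 6 rose and 0 fell (median 0.25), among them Trmt6 and Trmt61a, which together methylate tRNA (1.40-fold and 1.39-fold), and 3 rather than 6 rose without control array 2.

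Amino acid response genes rose as well. Of 24 measured genes, a list without synthetases, 17 rose and 1 fell, with a median log2 change of 0.61. Over all genes 10.1% rose and 11.4% fell. Atf4 itself measured 9.96, 9.99 and 10.13 with PDGF-BB and 9.66, 9.58 and 9.63 in control (1.32-fold higher, adjusted p = 0.0064, limma). Chac1, a glutathione-degrading target of the pathway, rose 2.44-fold and Psph, of serine synthesis, 1.72-fold. Ppp1r15a, the phosphatase subunit that reverses eIF2 phosphorylation, was 1.42-fold lower (adjusted p = 0.0039), and Ddit3, the stress factor CHOP, did not pass (log2 change 0.50, adjusted p = 0.056, limma). Ddit3 passed when blocked on replicate number (adjusted p = 0.0048), after the dim genes were filtered out (0.038) and when control 3 was dropped (0.029). Of the 4 eIF2 kinases, Eif2ak2 (PKR), which is also interferon-induced, rose 2.40-fold, from arrays of 11.25, 11.39 and 11.12 with PDGF-BB and 9.88, 10.33 and 9.76 in control (adjusted p = 0.0025, limma). Eif2ak4 (GCN2), which senses uncharged tRNA, had a log2 change of 0.00, Eif2ak1 (HRI) of -0.01 and Eif2ak3 (PERK) of 0.25 (adjusted p = 0.99, 0.94 and 0.069). Kinase transcripts say nothing of kinase activity.

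Of 12 amino acid transporter genes 6 rose and 2 fell (median log2 change 0.19), against 10.1% and 11.4% of all genes. Slc7a11, which imports cystine, rose at least 8.32-fold (9.62, 10.24 and 9.46 with PDGF-BB and 6.79, 6.75 and 6.62 in control, where the mean lay under the background level), and Slc6a9, a glycine transporter, 2.78-fold (adjusted p = 5.0e-04 each, limma). Slc38a2, a transporter of small neutral amino acids, was 1.18-fold lower, a call lost when control 2, control 3, PDGF-BB 1 or PDGF-BB 2 was dropped (adjusted p = 0.071 to 0.083). Interferon response genes (24 of 27 rose, median 1.59) and proliferation genes (14 of 14 rose, median 1.13) also moved with PDGF-BB, and their part in the synthetase changes was not tested. The proliferation count was 8 without any 1 PDGF-BB array and 10 without control array 2. The proliferation list's mean log2 value was 11.32 to 11.41 on the PDGF-BB arrays and 9.57 to 10.59 on the control arrays.

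**Figure D4:**
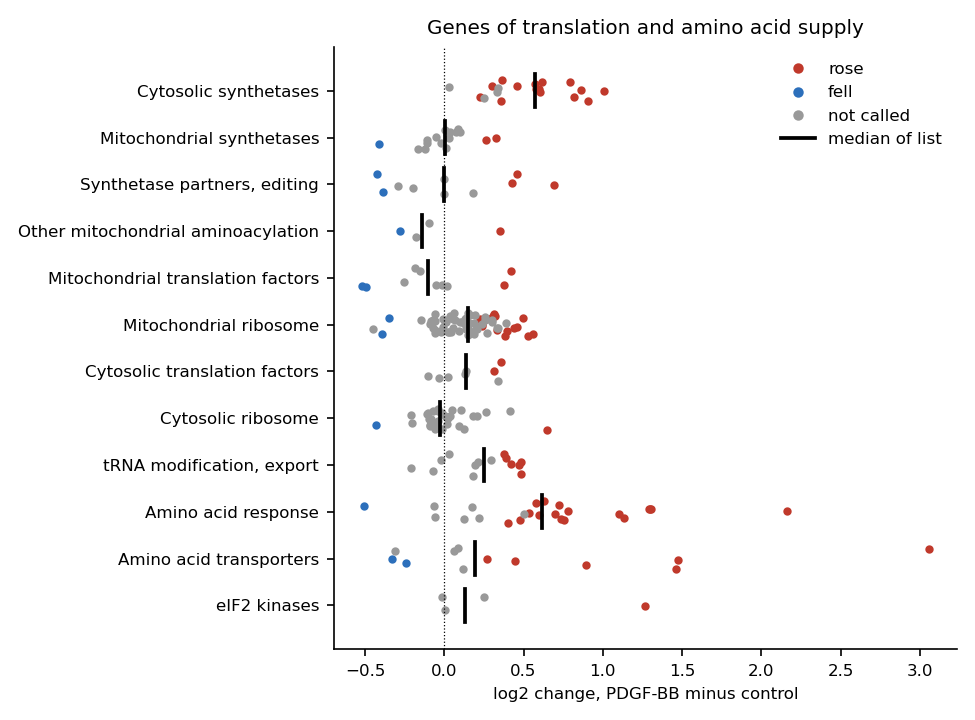
Log2 change (PDGF-BB minus control) of each gene in 12 lists, coloured by call, with a black bar at each list's median. Cytosolic synthetases (median 0.57) and amino acid response genes (0.61) lie to the right, while the mitochondrial synthetases (0.01) and cytosolic ribosomal protein genes (-0.03) centre near 0.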

How the data were processed

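The authors deposited log2 expression values of 6 arrays. The submitters' processing notes name RMA (software, version, probe set definition and filters: not given in the sources used here). Each of the 21225 probe sets carries an Entrez number, and GEO's platform annotation names 20239 with 1 symbol, 986 with none and 0 with several. All 35 members matched RefSeq's GRCm38.p6 gene table by Entrez number. Arrays give no read depth; 3 per group limits precision.

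The deposited values were fitted with limma (version 3.58.1, R 4.3.3), lmFit and eBayes, group as the only factor, all 6 arrays, no filter. Tests were two-sided and p-values Benjamini-Hochberg adjusted over all named genes, with a threshold of 0.05. Each log2 change is the PDGF-BB mean minus the control mean. Folds are 2 to its power, written "at least" where the lower mean lay under the background level. The code was tested on simulated data. Alternatives were a replicate block, repeated quantile normalization, median centring, a filter at the 50th percentile of mean value, a trended and robust variance model, unnamed probe sets included, and each array left out.

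The labels number arrays 1 to 3 in both groups. Deviations from group means correlated at 0.25, 0.32 and 0.25 between same-numbered arrays and at -0.28 to 0.01 otherwise, so same-numbered arrays may be pairs. The main fit did not use this pairing, and its p-values are unpaired. Pairing entered only in the replicate block, an alternative. The blocked value is given where it changes the call of a synthetase, a pair or a named gene of a pathway list.

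Members, gene lists, motifs and tests were chosen with earlier results of these data known. Named genes are all measured members; of the other lists, up to 2 called genes in each direction with the smallest p, with Atf4, Ddit3 and the eIF2 kinases in every case; Aimp1, Aimp2, Sepsecs, Tarsl2, Gatc and the cell type markers were named outside that rule, after their values were seen. The motifs and the test of pairs were also chosen after the values were seen. Lists were described by counts and medians without a set test. Listed genes without an annotated row are not analysed here.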

Additional observations from a re-analysis of the deposited data

How the results depend on the processing

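Over 12 alternatives the 35 synthetase genes gave 418 values, of which 370 kept their direction and their side of the threshold, 32 lost a call and 4 gained one. Of the 18 genes called, 11 (Aars, Cars, Eprs, Farsb, Iars, Mars1, Nars, Tars, Vars, Yars and Wars2) kept their call throughout. The count of cytosolic genes that rose was 15 in every alternative with all 6 arrays except the filter on dim genes (16), and 10 to 14 with 1 array left out; none fell in any alternative. The cytosolic median ran from 0.50 to 0.64 and the mitochondrial median from -0.04 to 0.04. The count of mitochondrial genes that rose was 1 rather than 2 with the trended and robust model and 0 to 2 with 1 array left out, and 2 rather than 1 fell after repeated quantile normalization. Of the pair differences 12 passed with the replicate block, where tyrosine was lost and serine gained, 11 with the filter, and 10 to 12 with 1 array left out. The filter removed Nars2 and so its pair, and of the pairs left only serine did not pass. The replicate block changed only the Rars and Wars calls among the synthetases, and the Ddit3 and Tarsl2 calls among the named genes of the pathway lists. Changes near 0 turned sign 12 times in 6 uncalled genes, whose log2 changes with 1 array left out ran as follows: Qars -0.0983 to 0.109, Aars2 -0.00169 to 0.0753, Iars2 -0.0234 to 0.0388, Lars2 -0.0608 to 0.0258, Pars2 -0.0739 to 0.0536 and Sars2 -0.0241 to 0.0813. Iars2 also turned sign after repeated quantile normalization (-0.0125). Of the related genes, Aimp1 -0.0754 to 0.0801, Sepsecs -0.0682 to 0.0734, Eif2ak1 -0.0663 to 0.0353 and Eif2ak4 -0.103 to 0.102 also spanned 0 with 1 array left out, and turned sign after median centring (0.0115 for Aimp1, 0.00977 for Sepsecs and 0.00201 for Eif2ak1) or repeated quantile normalization (-0.0126 for Eif2ak4). Each array left out removes 1 of 4 residual degrees of freedom and also shifts the estimates. For Gars the log2 change was 0.50 without control 2 and 0.74 without control 1. The cause of lost calls was not tested. With 3 arrays a group and no detection calls, small changes of the dimmer mitochondrial genes may go unseen.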
